A study of Rattus norvegicus with 4 samples.

Results

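The genes examined here are 6 genes of the stria vascularis: the potassium channel genes Kcnq1, Kcne1, Kcnj10 and Kcnj16, the chloride channel subunit gene Bsnd, and Lrp2, which encodes the endocytic receptor megalin. They were chosen by name, with earlier results of these data known, as every probe set annotated to these symbols. They account for 6 of the 13810 genes named on the arrays and for 7 probe sets. The day 1 array design carried 6 of these probe sets, for 5 genes, and the day 3 design carried 1, for Bsnd. Of the 5 genes on the day 1 design 4 were measured, and Kcnj10 was not.

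Expression was measured with Affymetrix arrays in the lateral wall of the rat cochlea, with 4 arrays in 4 groups and 1 array per group. The groups were saline at day 1, 3-NP at day 1, saline at day 3 and 3-NP at day 3. All animals were female Sprague-Dawley rats of 8 to 10 weeks, and 3-NP, or 3-nitropropionic acid, an inhibitor of mitochondrial succinate dehydrogenase, was applied to the left ear at 300 mM by infusion at the round window, with saline alone in the control groups. The right cochlea was destroyed surgically in all of them, per the labels' protocols. The sources used here do not say how many animals an array stands for, and no difference has a replicate check or a p-value. The labels place the tissue in the upper basal turn, while their protocol text names the second turn and states that the stria vascularis was left out.

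The stria vascularis is the epithelium of the lateral wall that secretes potassium into the endolymph and maintains the endocochlear potential. Its marginal cells take up potassium at their basolateral side through the sodium pump and the NKCC1 cotransporter, return chloride through ClC-K channels that need the subunit barttin, and release potassium into the endolymph through the channel formed by KCNQ1 and its accessory subunit KCNE1. The inward rectifier KCNJ10 (Kir4.1) of the intermediate cells generates the endocochlear potential, KCNJ16 (Kir5.1) is a partner subunit of KCNJ10 that is also found in spiral ligament fibrocytes, and megalin is an endocytic receptor at the apical face of marginal cells.

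Values are the deposited signals per probe set on a linear scale. Ratios are log2 of the 3-NP signal over the saline signal, relative to the median gene of the day, because the median gene itself was 0.44 higher in 3-NP at day 1 and 0.10 higher at day 3. A signal under the 30th percentile of its array was taken as at the floor (at day 1 this was 17.1 for saline and 22.04 for 3-NP, at day 3 9.22 and 9.85), and a gene was measured where 1 of its arrays reached the array's median. Genes were called 2-fold apart from a log2 ratio of 1 or -1 outward. Taken from the 2 brightest probe sets of a gene, the ratio of a single probe set had an SD of 0.35 at day 1 (744 genes) and 0.47 at day 3 (805 genes). A gap between 2 probe sets spreads more widely than this SD. The SD holds probe and hybridisation error and none from animals or dissection.

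All 4 measured channel and megalin genes had lower signals in 3-NP than in saline at day 1, by 2.68-fold to 3.22-fold relative to the median gene. Over all 6533 genes measured that day, 6.47% were at least 2-fold lower. Because the genes were chosen with earlier results of these data known, setting them beside that share is no test. The median of the 4 genes was -1.57, against 0 for all genes by construction, and the quartiles of all genes were -0.40 and 0.41. As deposited, with no centring, the median was -1.13 and 3 of the 4 were at least 2-fold lower, beside 2.62% of all genes. All 4 had signals above the array median in both day 1 arrays, so none of them passed the filter through saline alone. Bsnd, the only one of these genes on the day 3 design, was 3.82-fold lower. As deposited it was 3.56-fold lower. That day 8.18% of 3972 measured genes were at least 2-fold lower (6.42% as deposited), but Bsnd passed the filter only through the saline array, where it is high, and nothing is read from that share.

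Of the promoter sequences in RefSeq's GRCr8 assembly, those of Lrp2 and Bsnd are shown because these were the lowest member at day 1 and the only member at day 3. Each line gives the 250 bases before the gene's start, on its minus strand, with matches to a GC box in capitals. The Lrp2 window is at chr3:74754536-74754785 and the Bsnd window at chr5:126489390-126489639.
Lrp2: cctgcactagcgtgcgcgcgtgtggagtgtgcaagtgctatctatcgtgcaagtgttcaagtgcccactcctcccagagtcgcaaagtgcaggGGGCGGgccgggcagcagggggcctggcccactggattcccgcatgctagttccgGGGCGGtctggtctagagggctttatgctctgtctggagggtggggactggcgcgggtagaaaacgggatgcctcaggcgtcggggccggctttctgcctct
Bsnd: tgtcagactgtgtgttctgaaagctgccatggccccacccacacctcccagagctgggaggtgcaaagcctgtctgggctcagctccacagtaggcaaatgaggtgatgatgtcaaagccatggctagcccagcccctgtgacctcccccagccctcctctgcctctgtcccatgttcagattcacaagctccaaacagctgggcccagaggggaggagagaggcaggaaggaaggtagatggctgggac

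The Lrp2 window held GC boxes (GGGCGG on either strand) whose first bases lay 157 and 102 bases before the start, and its GC content was 64.4%. The Bsnd window held none, with a GC content of 59.2% beside a median of 51.2% over all 33469 windows of that length. GC boxes were found in 30.5% of all windows and in 2 of the 5 member windows in the table, those of Lrp2 and Kcnj10. The windows of Kcne1 and Kcnj16 start inside the annotated gene span and are not shown, and Kcnq1 had no entry. None of the 5 held the element TNAAGGTCA of oestrogen-related receptors (1.04% of all windows), its core AAGGTCA, which overlaps it (3.99%), the E-boxes CACGTG (5.59%) and CATGTG (12.1%), or TATAAA (12.9%).

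Kcnq1, the pore-forming subunit of the channel that releases potassium into the endolymph, gave a day 1 signal of 157 with saline and 79.3 with 3-NP. Its relative log2 ratio was -1.42, and 176 of the 6533 measured genes had a lower ratio. Kcne1, the accessory subunit that slows and enlarges the KCNQ1 current, gave 1006 with saline and 475 with 3-NP. Its ratio was -1.52, and 144 genes lay below it. Both subunits were lower in the 3-NP array, and their ratios differed by 0.10, less than the probe set SD. As deposited, Kcnq1 was at -0.98 and Kcne1 at -1.08, so that Kcnq1 was just inside the 2-fold limit.

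Kcnj16 was measured by a pair of probe sets. The brighter gave 875 with saline and 385 with 3-NP, and its ratio was -1.62. The dimmer gave 406 and 256, and its ratio was -1.10. Both were lower in 3-NP and past 2-fold, and they differed from each other by 0.52, more than any of the 4 genes differed from another by its brightest probe set (0.27 at most). As deposited the values were -1.18 and -0.66. Kcnj10, the partner of Kcnj16 and the channel of the intermediate cells, had 11.6 in saline and 13.3 in 3-NP. Both signals were under the floors of their arrays, so Kcnj10 has no ratio here, and its level could not be followed in this tissue by this probe set.

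**Figure D1:**
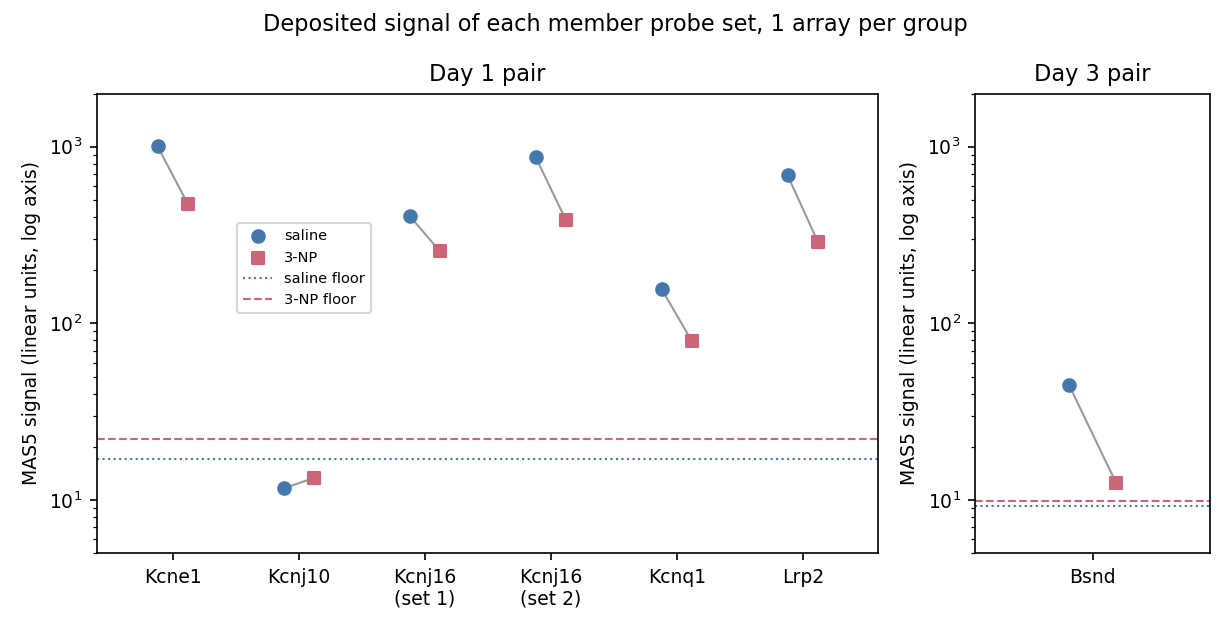
Deposited signal on a log axis for each member probe set, with saline as circles, 3-NP as squares, a line joining the 2 arrays of a pair and the floor of each array as a dotted (saline) or dashed (3-NP) line. Every probe set above the floors has a lower signal in 3-NP, and Kcnj10 lies under both floors. Heights of different probe sets cannot be compared.

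Bsnd, which encodes barttin, gave 44.6 with saline and 12.5 with 3-NP at day 3. The relative log2 ratio was -1.93 (-1.83 as deposited). The saline signal lay above the median of its array (18.7). The 3-NP signal lay under the median signal of its array (19.97) and was 1.27 times the floor. With the floor at the 40th percentile the 3-NP signal was at the floor, and the ratio became a bound at -1.73. Barttin has a single probe set, so no further probe set of these arrays bears on it. The ClC-K channel genes that it serves had no probe set named for them on either design.

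The Lrp2 signal at day 1 was 688 with saline and 289 with 3-NP. Its relative ratio was -1.69 on the log2 scale, and -1.25 as deposited. It was the lowest of the 4 genes measured that day, and 96 of 6533 genes had a lower ratio. The largest gap between genes, Lrp2 against Kcnq1, was 0.27 and so below the probe set SD of 0.35, and the order of the 4 genes is not resolved. Gaps between members do not depend on the centring.

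**Figure D2:**
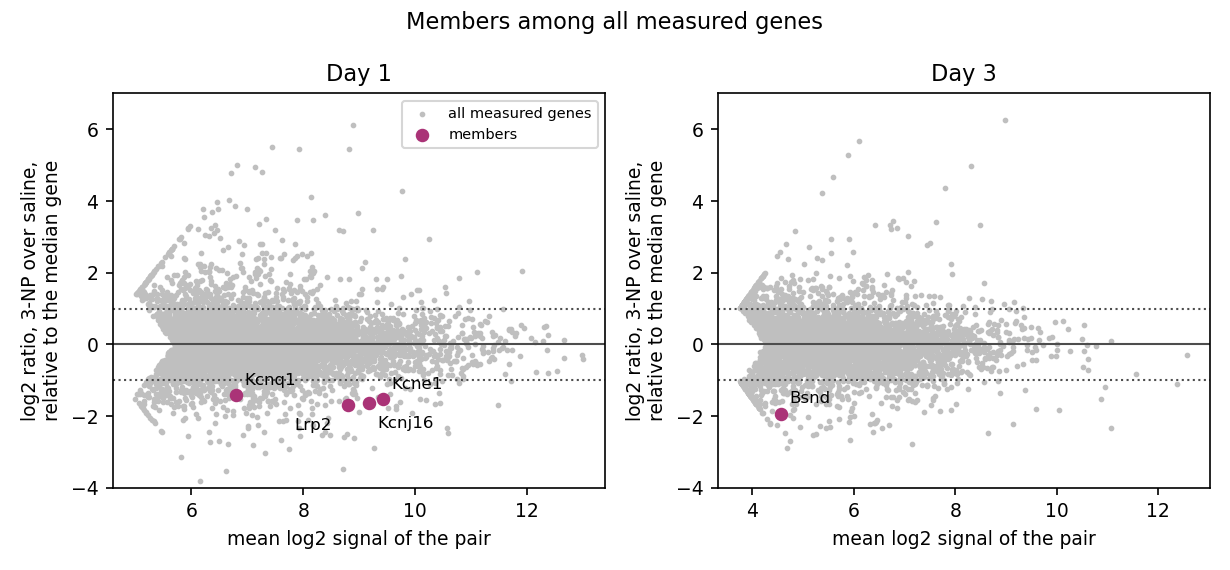
Relative log2 ratio of 3-NP over saline against mean log2 signal, each grey point 1 measured gene and each purple point 1 of the channel and megalin genes, with dotted lines at 2-fold. Genes with 1 signal at the floor are drawn at their bound and form the slanted edges at the left. The 4 genes of day 1 lie between -1.42 and -1.69 and Bsnd at day 3 lies at -1.93.

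By the distance between the log2 signals of a pair, the gene nearest to Lrp2 at day 1 was Glycam1, a mucin-like glycoprotein gene, with 681 in saline and 305 in 3-NP (distance 0.08). The gene nearest to Kcnq1 was Ramp3, a receptor activity-modifying protein gene, with 171 and 80.6 (0.13). Selenop, which encodes the selenium carrier selenoprotein P, was nearest to both Kcne1 (0.14) and Kcnj16 (0.25), with 927 and 453. The gene nearest to Bsnd at day 3 was the formin gene Fmn1, with 43.2 and 12.6 (0.05). Each of these rests on 2 arrays, and brightness of the probe sets enters the distance.

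Around the channels, some other genes of endolymph ion transport were also lower at day 1. Of 30 listed genes without the members, 22 were on the design and 18 were measured; 6 were at least 2-fold lower, 0 were higher and 12 were neither, with a median of -0.66. Over all genes 6.47% were lower and 7.76% higher. Among the 6 lower genes, Nr3c2 and Slc26a4 passed the filter only through the saline array, where they are high. As deposited 4 of the 18 were lower and 4 higher, with a median of -0.22, where 2.62% of all genes were lower and 17.9% higher. Gjb6, which encodes the gap junction protein connexin 30, had 3139 in saline and 761 in 3-NP (-2.48). Car2, a carbonic anhydrase gene, had 611 and 200.3 (-2.05), and its other probe set gave -1.75.

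The remaining lower genes of that list included regulators of epithelial transport. Nr3c2, the mineralocorticoid receptor gene, had 126 and 59.7 (-1.52). The anion exchanger gene Slc26a4, which encodes pendrin, was at -1.48, and Esrrb, a nuclear receptor gene of marginal cells, had 471 and 240.1 (-1.41, and -0.97 as deposited). The last pair was picked for naming with its values known. The NKCC1 gene Slc12a2 was at -1.01 and -0.57 as deposited.

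The sodium pump subunit genes were closer to the median gene at day 1, and the other connexins lay on both sides of it. At day 1 the pump subunit gene Atp1b1 had 2052 in saline and 1875 in 3-NP (-0.57, and -0.56 by another probe set), and Atp1b2, the subunit of marginal cells, had 168 and 140 (-0.70). The connexin 26 gene Gjb2 was 1.99-fold lower and so just under the limit, and the connexin 43 gene Gja1 was on the other side, with 102 and 241 (0.80). At day 3 Atp1b2 had 2881 and 1356 (-1.19), on another probe set. It was 1 of 2 lower genes among the 3 measured, the other being Slc4a11, a solute carrier gene of fibrocytes, with 7504 and 3723 (-1.11). That day 8.18% of all genes were lower (6.42% as deposited). Slc12a7, a potassium chloride cotransporter gene, was at 0.72 at day 1 and 0.30 at day 3. Under quantile normalization Atp1b2 was at -0.78 and Slc4a11 at -0.65 at day 3, so neither reached 2-fold.

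The few other potassium channel genes that could be measured lay on both sides of the median gene at day 1. Of 69 on the day 1 design besides the members, 11 were measured, with a median of 0.09 (0.53 as deposited), and 31 of the 69 had no probe set above the floor in either array. Kcnmb4, a subunit gene of the large calcium-activated channel, had 67.6 and 45.4, and Kcnn4, an intermediate-conductance calcium-activated channel gene, had 48.8 and 32.8. Both were at -1.01, and as deposited or after lowess neither was 2-fold lower. They were the 2 lower genes of the 11, where 6.47% of all genes were lower. Kcnmb4 and Kcnn4 passed the filter only through the saline array, where they are high. Kcne3, a relative of Kcne1, was the 1 gene at least 2-fold higher, with 25.4 and 83.6 (1.28), where 7.76% of all genes were higher. Kcne3, Kcns3, Kcnab1 and Kcnk1 passed the filter only through the 3-NP array, where they are high. The median of the 11 therefore depends in part on the filter. As deposited 4 were higher, beside 17.9% of all genes, and Kcne3, Kcns3 and Kcnab1 were among them. At day 3, 7 of 14 were measured, with a median of 0.50; 0 were lower and 1 was higher, Kcnip1, a channel-interacting protein gene, at 1.07 with 18.4 and 41.5, where 9.21% of all genes were higher. It too passed the filter only through the 3-NP array. Kcnq5, a relative of Kcnq1, was at 0.60 (-0.15 by another probe set), and the accessory subunit gene Kcnab1 at 0.59.

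Among megalin's partners and the LDL receptor family, 14 of 20 genes on the day 1 design were measured, with 2 lower (6.47% of all genes), 0 higher and a median of -0.33. As deposited 2 were lower and 2 higher, beside 2.62% and 17.9% of all genes, with a median of 0.11. Lrpap1, which encodes the chaperone RAP that escorts megalin and its relatives through the endoplasmic reticulum, had 367 in saline and 155 in 3-NP. Its ratio of -1.69 (-1.25 as deposited) equalled that of Lrp2 to 2 decimals, and its other probe set gave -1.63. Sorl1, a sorting receptor related to megalin, had 1280 and 567 (-1.61). It was also lower at day 3, with 1386 and 429 (-1.79) and -1.78 by another probe set.

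The other genes named from this list lay on both sides of the median gene. At day 1 Rbp4, a megalin ligand gene, was at 0.98, or 1.42 as deposited, while Lrp1 was at -0.10 and Lrp6 at -0.42. At day 3 Lrp6 was at -0.90 and Lrp5 at -0.77, with a second Lrp5 probe set at -1.63. Sorl1 was the 1 lower gene of 4 measured then, where 8.18% of all genes were lower. Lrp1 was at the floor in saline by its day 3 probe set, so its ratio of 1.48 is a bound. Cubn and Amn, which encode megalin's partners cubilin and amnionless, did not reach the filter at day 1.

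**Figure D3:**
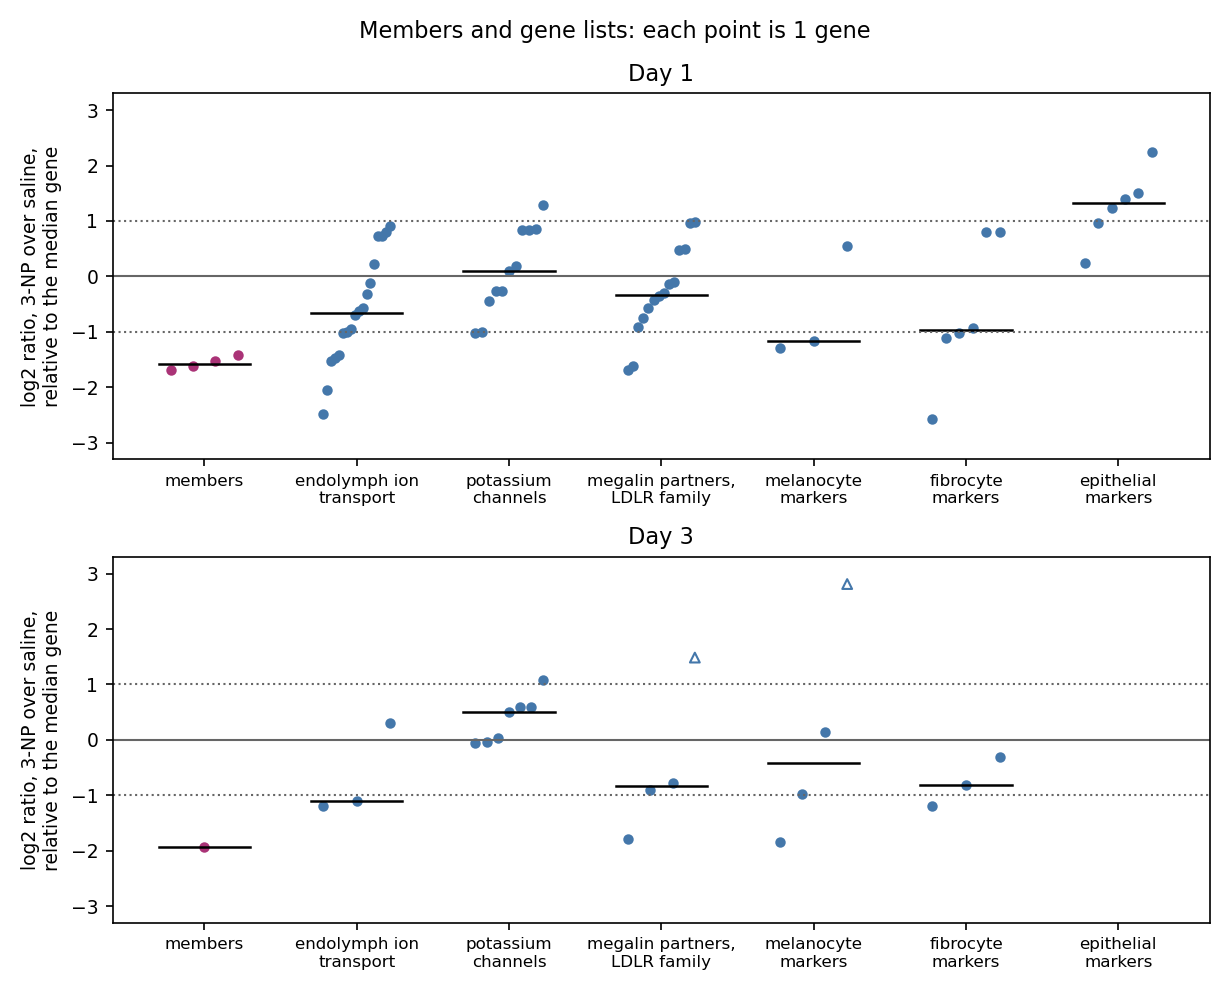
Relative log2 ratio of 3-NP over saline for each measured gene of the members and of 6 gene lists, at day 1 (top) and day 3 (bottom), with the list median as a black bar, 2-fold as dotted lines and bounds as open triangles. At day 1 the members lie together near -1.57, the ion transport and megalin lists spread on both sides of 0, and all 6 measured epithelial markers lie above 0; 0 epithelial markers were measured at day 3. Slc12a2 is in both the ion transport and the fibrocyte list.

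Markers of the cell types in the tissue moved with these genes in part. The marginal cell list shares 3 of its 5 measured genes with the members; the others, Esrrb and Atp1b2, were at -1.41 and -0.70 at day 1. In the saline array at day 1, Kcnq1, Kcne1 and Lrp2 were at 9.13 times the floor or more, in tissue that the protocol text describes as free of stria. Kcnj16 was also well above the floor, but it is found in spiral ligament fibrocytes too. In bulk tissue, fewer cells of a type and less RNA per cell cannot be told apart, and unequal amounts of stria in the dissections were not tested.

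The melanocyte list, for the intermediate cells, had 6 of 12 genes on the day 1 design and 3 measured. Mlana was at -1.29 with 295 and 164, Mitf at -1.17 with 165 and 99.5, and Gpnmb at 0.54 with 1655 and 3265; the summed signal of the 3 was 2115 in saline and 3528 in 3-NP, most of it Gpnmb. At day 3 Tyr, the tyrosinase gene, was at -1.85 with 381 and 114, Mitf at -0.97 and Pmel at 0.15. Tyrp1 was at the floor in saline and is a bound at 2.81, with 0.69 by another probe set. Basal cell markers at day 1 were Cldn11 at -0.86 and Tjp1 at -0.36.

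General epithelial markers had higher signals in 3-NP at day 1, when the marginal cell channels were lower. Of 8 markers 6 were measured, 4 were at least 2-fold higher and 0 lower, with a median of 1.32, where 7.76% of all genes were higher. As deposited 5 were higher, beside 17.9% of all genes, with a median of 1.76. Their summed signal was 2349 in saline and 7164 in 3-NP. Epcam, an adhesion molecule of epithelia, had 544 and 2099 (1.51), Krt8 had 278 and 993 (1.40), Krt19 had 721 and 2306 (1.24), and the tight junction gene Cldn4, which passed the filter only through the 3-NP array, had 32.1 and 206 (2.24). Cdh1, which encodes E-cadherin, was at 0.25. These keratins and adhesion genes are not particular to marginal cells, and their part in the ratios of the channel genes was not tested.

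Fibrocyte markers had 3 of 6 genes lower and 0 higher at day 1 and a median of -0.98. Car3 was at -2.57 (-3.13 by another probe set), Pou3f4 at -1.12 and Slc12a2 at -1.01. Cav1 was at -0.94 (-1.26 by another probe set), Vim at 0.79 and Aldh1a2 at 0.81. Over all genes 6.47% were lower and 7.76% higher that day. As deposited 1 fibrocyte marker was lower and 2 were higher, beside 2.62% and 17.9% of all genes. Summed over the 6, the signal was 5994 with saline and 4388 with 3-NP. At day 3 the median of 3 was -0.82, with Tbx18 at -1.19 and Cav1 at -0.82. Coch, which encodes the fibrocyte protein cochlin, had 6548 and 5677 (-0.31). Endothelial and macrophage markers had higher medians at day 1, at 1.58 for 4 genes, of which 2 are bounds, and 0.94 for 4 genes. Their summed signals were 186 and 620.3 for the former and 249.6 and 1068 for the latter, in saline and 3-NP. Among them Plvap, Mcam, Cd14 and Cd68 passed the filter only through the 3-NP array, where they are high. Another Mcam probe set, above the floor in saline and 3-NP, was at 0.82. Tek, the 1 endothelial marker measured at day 3, was at -0.66. At day 3 both macrophage markers measured were at least 2-fold lower (0 as deposited), with a median of -1.07, where 8.18% of all genes were lower. Of these markers Cd163 passed the filter only through the saline array, where it is high. Glia and Schwann cell markers, whose cells can carry Kcnj10, had a median of 0.33 over 5 genes at day 1. They ranged from S100b at -0.76 to Gfap at 3.55, and Gfap passed the filter only through the 3-NP array, where it is high. Bone markers at day 1 had 3 of 4 lower (2 as deposited), beside 6.47% of all genes (2.62% as deposited), with a median of -1.32. Of the lower ones, Ibsp and Omd passed the filter only through the saline array, where they are high. Of the further marker lists at day 1, spindle and root cells had a median of -0.71 over 4 genes. Of these, Lgr5 (-1.59) and Slc26a4 (-1.48) passed the filter only through the saline array, where they are high. Anxa1 was at 0.05 and P2rx2 at 0.72. Erythrocyte markers had a median of 0.63 over 2 genes, and the 1 organ of Corti gene measured, Myo6, was at -1.60. The parts of all these cells in the result were not tested.

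**Figure D4:**
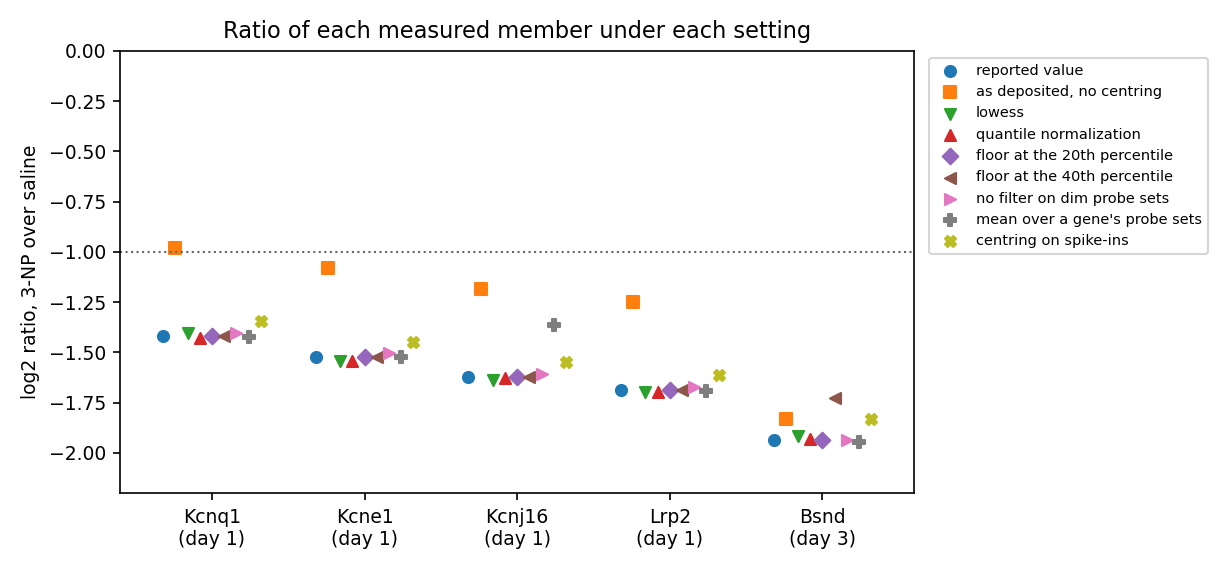
Log2 ratio of 3-NP over saline for each measured member under the reported setting and 8 others, each symbol 1 setting, with a dotted line at 2-fold. All values are negative, and Kcnq1 as deposited, at -0.98, is the 1 value above the line.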

How the data were processed

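Per the labels' protocols, 6 µg of total RNA went into biotin-labelled cRNA for Affymetrix arrays. The authors deposited 1 MAS5 signal intensity per probe set, not log-transformed, per the submitters' processing notes and the values themselves. How the arrays were scaled, and which probe sets were called present, was not stated. Day 1 and day 3 were run on different designs, with 15923 and 15333 probe sets, so day 3 was not compared with day 1. MAS5 subtracts mismatch signal, which makes dim probe sets noisy, and 3' probes report RNA near the transcript's end.

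Probe sets were named by the platform's annotation, with symbols updated to GRCr8 by gene identifier (10378 of 10411 and 5636 of 5667 genes matched). Control probe sets were left out. Floors, the filter and the 2-fold call are given in the text; the gene's brightest probe set stood for it. Alternatives were signals as deposited, lowess (fraction 0.3), quantile normalization, floors at the 20th and 40th percentile, no filter, the mean of probe sets and, chosen after seeing the data, centring on the 18 hybridisation spike-ins. The computation was checked on simulated data. Software was Python 3.11.15, numpy 2.4.6, pandas 2.3.3, statsmodels 0.14.6 and matplotlib 3.10.9.

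The genes and lists were chosen with earlier results of these data known. Named genes were the members, the 3 genes of the ion transport, potassium channel and megalin lists furthest from 0 per day above the floor in both arrays, a few core transport genes, and the nearest gene to each member; examples from marker lists were chosen after their values were seen. The ratio of the Actb 3' over 5' control signal was 2.69 (saline) and 2.53 (3-NP) for the day 1 pair, 3.22 and 2.79 for the day 3 pair. The number of arrays, 1 per group, limits the precision.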

Additional observations from a re-analysis of the deposited data

How the results depend on the processing

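The ratio of every measured member stayed below 0 under the 8 alternatives: between -1.43 and -0.98 for Kcnq1, -1.54 and -1.08 for Kcne1, -1.64 and -1.18 for Kcnj16, -1.70 and -1.25 for Lrp2, and -1.95 and -1.73 for Bsnd. The count of members at least 2-fold lower at day 1 was 4 throughout, except 3 as deposited, and at day 3 it was 1 throughout. The count of lower potassium channel genes at day 1 went from 2 to 0 as deposited, after lowess and with centring on spike-ins, and to 1 under quantile normalization, with the floor at the 40th percentile and with no filter; both genes lay within 0.02 of the limit. The count of lower ion transport genes at day 3 went from 2 to 1 after lowess and to 0 under quantile normalization, and that of the megalin list at day 3 from 1 to 2 with the mean over probe sets. The cause was not tested. Of 72 alternative values for the counts of these lists 63 stayed within 1.5 times the reported count, and 9 did not. Of 512 values for single genes, medians and counts of higher genes, 462 stayed within the probe set SD or within 1.5 times the count, 50 moved further and 0 reversed a call. No paired analysis was possible because each group has 1 array and no replicate number. With 1 array per group, no setting tests the spread between animals.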
